A study of Mus musculus with 3 samples.

Results

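Transcripts of 9 autophagy and mitophagy genes were followed across single wells of mouse heart cells, in a study of Ino80, the ATPase subunit of a chromatin remodelling complex. The genes were taken by name: the cargo adaptor gene Sqstm1, the ATG8-family genes Map1lc3a, Map1lc3b and Gabarapl1, the mitophagy receptor genes Bnip3, Bnip3l and Fundc1, and the kinase genes Pink1 and Ulk1. All 9 were found in each of the 3 deposited count tables, among 55401 mouse gene identifiers.

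Each library held wells of 1 day after the start of tarmoxifen treatment (the labels' spelling of the inducer). The day 1 library carries the genotype label D1_INO80_OE and the day 2 library D2_INO80_OE, whereas the day 3 library is labelled D3_INO80_OE, D3_Ctrl, so that it mixes both genotypes and no file says which well is which. The series title names Myh6-MCM;Ino80fl/fl hearts, that is a Cre that acts under the cardiomyocyte myosin promoter after the inducer, together with a floxed Ino80 gene, while the labels and the design text speak of overexpression and induction; the files do not settle which. Every library carries the inducer, the day 0 animals named by the design were not analysed here, and how many animals were pooled is not stated by the labels. With 1 library per day, no comparison below has a replicate check, none was tested, and the 95% intervals cover counting error only: reads that carry no molecular identifier can be copies of 1 molecule.

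The libraries held 1232, 1063 and 1099 wells on days 1, 2 and 3, with 452070922 to 487461107 counts each. Libraries shared 247 to 278 well barcodes by pairs, and 67 barcodes were in all 3; the labels do not say what a shared barcode stands for. Wells were compared in a compartment defined as the kept wells outside clusters named fibroblast-like, endothelial-like, macrophage-like, erythroid-like, mesothelial-like or neutrophil-like. That compartment held 582, 630 and 882 wells on days 1, 2 and 3, at a median of 350998, 354394 and 361534 counts per well. Its 4 main clusters had at most 2 markers of any class 2-fold or more above the rest, fewer than a name needs. The naming rule in any case gave no cluster the ventricular cardiomyocyte name, so the lack of that name is not a result. It is thus a compartment by exclusion. It also kept a small cluster named atrial cardiomyocyte-like. That cluster held 21 wells of day 1, 0 of day 2 and 4 of the day 3 wells low in Ino80. Against the other clusters, the median log2 ratio of ventricular markers was 0.07 and 0.09 in the clusters of 89.9% of day 1 and 94.1% of day 2 wells, -0.85 in that of 99.5% of day 3 wells high in Ino80, and 0.58 in that of 97.9% of day 3 wells low in Ino80. The value of -0.85 goes against a cardiomyocyte name and lies below those of the largest fibroblast-like (-0.07), endothelial-like (-0.21) and macrophage-like (-0.21) clusters. All 11 ventricular markers were detected in it in every group, and their summed level was 118233 CPM on day 1, 120698 CPM on day 2, 78488 CPM in day 3 wells high in Ino80 and 141406 CPM in day 3 wells low in Ino80. CPM is counts per 1000000 counts of nuclear-encoded genes, pooled over the wells of a group.

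Day 3 wells were divided by their own Ino80 level, since the labels could not divide them. The Ino80-high wells (1000 CPM or more) numbered 399 and had a pooled Ino80 level of 3034 CPM, and the Ino80-low wells (under 100 CPM) numbered 437 and had 18.1 CPM. The other 46 wells lay between. These are classes of a measured level and not the 2 genotypes. Pooled Ino80 was 2851 CPM on day 1 and 4941 CPM on day 2, and it was also 2446, 3864 and 1068 CPM in macrophage-like wells of days 1, 2 and 3, where the Myh6 promoter is not active; how much Ino80 in a well came from outside its cell was not tested.

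Autophagy encloses cytoplasm in a double membrane that fuses with the lysosome. The kinase ULK1 starts the process, ATG8-family proteins of the LC3 and GABARAP branches are attached to the growing membrane, and adaptors such as p62, the product of Sqstm1, tie ubiquitin-tagged cargo to them. Mitophagy removes mitochondria by the same route: PINK1 accumulates on damaged mitochondria and phosphorylates ubiquitin there, while BNIP3, NIX (from Bnip3l) and FUNDC1 sit in the outer mitochondrial membrane and bind LC3 directly. Cardiac muscle, which is dense in mitochondria and rarely divides, relies on both. Transcript levels do not measure the rate of either process, and p62 and LC3 are themselves degraded by it.

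RefSeq promoter windows (GRCm38.p6, 250 bases before to 50 bases after the start, on the gene's own strand) were at hand for 7 of the 9 genes; Bnip3l and Map1lc3a had no entry. The windows of the 3 genes that stood highest in day 3 Ino80-high wells over Ino80-low wells, and that of Bnip3, which held a match to a searched motif, are shown with matches in capitals. They lie at chr11:50210771-50211070 (minus strand) for Sqstm1, chr5:110810032-110810331 (minus) for Ulk1, chr6:129532942-129533241 (plus) for Gabarapl1 and chr7:138909457-138909756 (minus) for Bnip3.
Sqstm1: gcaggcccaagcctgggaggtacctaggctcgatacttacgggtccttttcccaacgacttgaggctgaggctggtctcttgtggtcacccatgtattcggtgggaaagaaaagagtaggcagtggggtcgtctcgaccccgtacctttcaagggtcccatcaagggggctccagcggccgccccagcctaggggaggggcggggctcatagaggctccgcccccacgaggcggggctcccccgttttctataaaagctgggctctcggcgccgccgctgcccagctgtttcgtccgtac
Ulk1: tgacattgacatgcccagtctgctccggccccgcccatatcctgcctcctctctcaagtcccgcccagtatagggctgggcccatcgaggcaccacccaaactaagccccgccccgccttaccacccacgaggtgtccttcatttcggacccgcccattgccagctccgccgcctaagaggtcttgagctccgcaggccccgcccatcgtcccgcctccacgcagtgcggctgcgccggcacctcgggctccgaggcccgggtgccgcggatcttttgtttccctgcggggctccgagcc
Gabarapl1: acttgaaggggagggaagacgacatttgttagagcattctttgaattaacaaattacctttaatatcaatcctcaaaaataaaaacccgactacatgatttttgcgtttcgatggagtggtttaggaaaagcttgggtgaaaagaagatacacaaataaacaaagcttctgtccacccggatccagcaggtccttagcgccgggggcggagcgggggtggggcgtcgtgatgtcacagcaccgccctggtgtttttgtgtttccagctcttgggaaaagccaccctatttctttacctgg
Bnip3: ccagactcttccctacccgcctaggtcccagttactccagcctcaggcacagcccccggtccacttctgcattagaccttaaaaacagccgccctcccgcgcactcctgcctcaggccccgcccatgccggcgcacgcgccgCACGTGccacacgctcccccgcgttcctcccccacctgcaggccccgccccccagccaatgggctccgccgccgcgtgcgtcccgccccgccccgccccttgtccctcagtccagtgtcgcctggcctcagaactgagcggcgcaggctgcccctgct
The motifs searched on both strands were ACGTG (a hypoxia response core), CACGTG (an E-box, which holds ACGTG on both strands), TGANNNNGC (an antioxidant response core), GTAAACA (forkhead) and TGATGNAA (an ATF4 composite site). Of all 32851 windows of this length, 19.6% held the first, 7.15% the second, 41.3% the third, 3.65% the fourth and 3.97% the fifth. The Bnip3 window held 1 E-box, whose first base lies at -108 from the start. The Map1lc3b and Fundc1 windows each held 2 matches to the antioxidant response core, a motif that many windows hold. No match to any of the 5 motifs was found in the Sqstm1, Ulk1, Gabarapl1 or Pink1 windows, which says only that these letters are not there.

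The 9 genes covered a wide range of levels, which are compared between genes only per kilobase of exon. The length used is the union of all annotated exons. It is 1181 bases for Map1lc3a, 7517 for Map1lc3b and 6488 for Ulk1, whose pooled day 1 levels were 887, 650 and 37.5 CPM. The order thus depends on this divisor, and which exons were transcribed was not tested. On day 1, Map1lc3a stood highest at 751 CPM per kilobase, ahead of Sqstm1 at 247, Pink1 at 164 and Map1lc3b at 86.5 CPM per kilobase. Gabarapl1 at 27.3, Bnip3 at 26.3, Fundc1 at 8.74, Bnip3l at 7.17 and Ulk1 at 5.78 CPM per kilobase followed. The first 4 genes were also the first 4, and Bnip3l and Ulk1 also the last, on day 2 and in both day 3 classes, though Pink1 at 133 CPM per kilobase stood above Sqstm1 at 103 in day 3 Ino80-low wells. Over the wells of day 1, the quartile ranges of neighbours in this order did not overlap between Map1lc3a and Sqstm1 or between Map1lc3b and Gabarapl1, and overlapped for the 6 other pairs of neighbours. For Bnip3l, Ulk1 and Fundc1 the median well held no read on day 1, on day 2 or in either day 3 class. Their pooled levels there rest on the 30.7% to 47.4% of wells with a read.

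**Figure D1:**
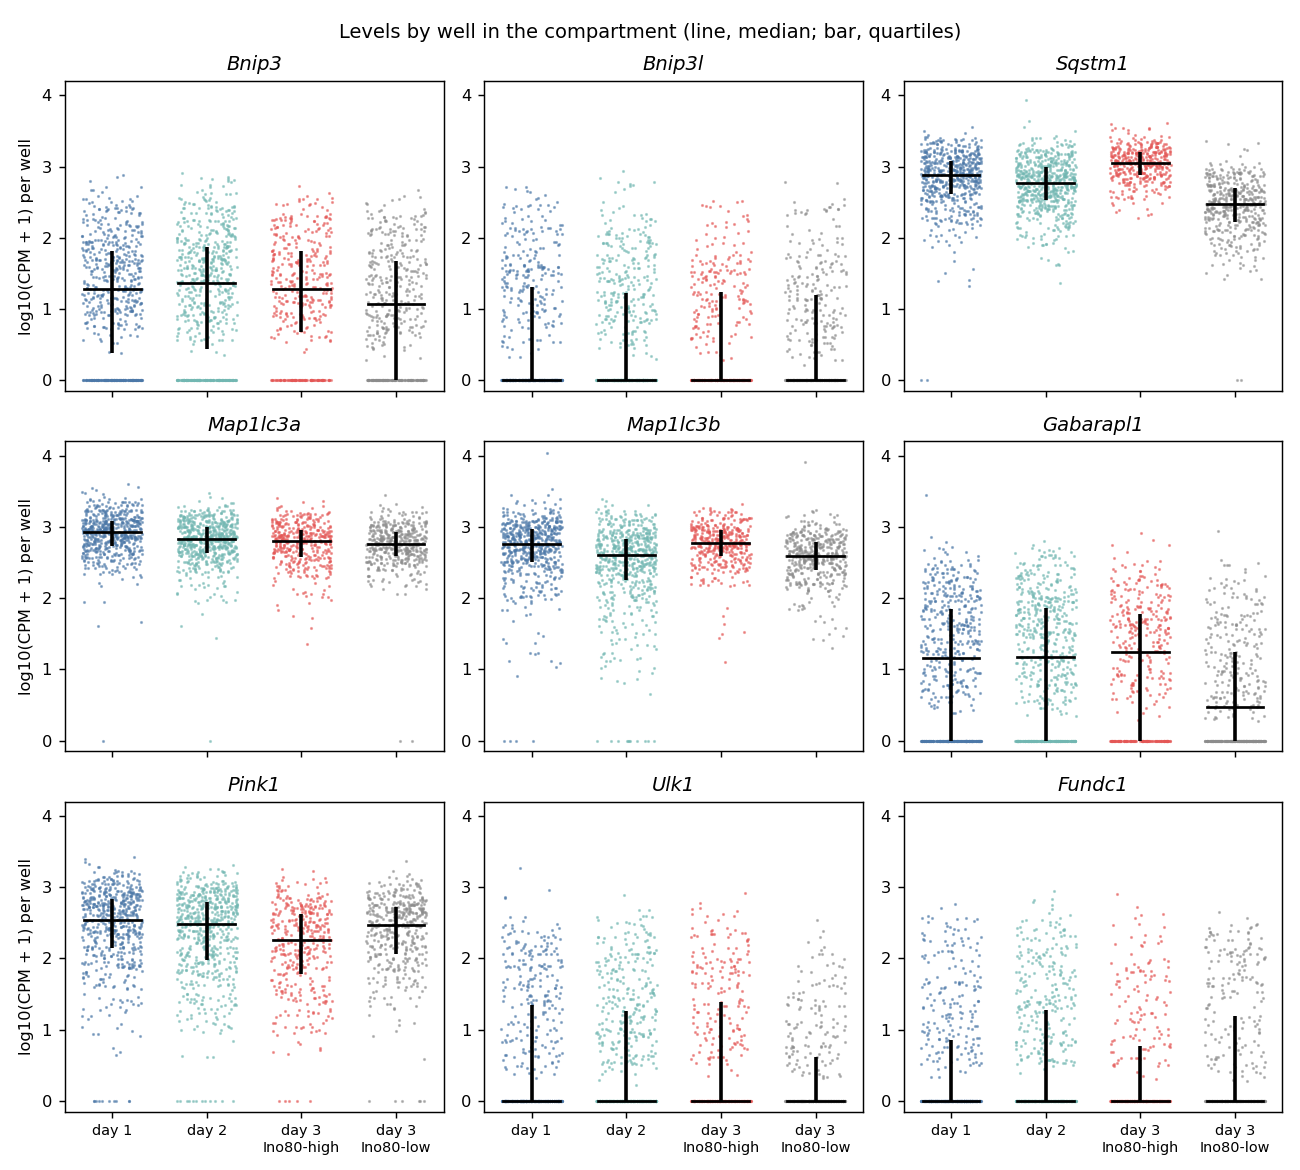
Level of each of the 9 genes in every compartment well, as log10(CPM + 1), in day 1 (582 wells), day 2 (630), day 3 Ino80-high (399) and day 3 Ino80-low wells (437); each point is 1 well, the horizontal line the median and the vertical bar the quartiles. The Sqstm1 cloud of day 3 Ino80-high wells sits above that of Ino80-low wells (medians 1134 and 298 CPM), while the clouds of Map1lc3a lie at like heights.

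Within day 3, Sqstm1, Ulk1 and Gabarapl1 were at least 1.5-fold higher in Ino80-high than in Ino80-low wells, while Pink1, both LC3 genes and the 3 mitophagy receptor genes were less than 1.5-fold apart. The adaptor gene Sqstm1 was at 1229 CPM (95% interval 1223 to 1236) in Ino80-high wells and 345 CPM (343 to 348) in Ino80-low wells, a ratio of 3.56. Ulk1, the initiating kinase gene, was at 32.4 CPM in Ino80-high wells and 8.25 CPM in Ino80-low wells, 3.93-fold apart, and Gabarapl1 at 52.3 CPM in Ino80-high wells and 22.3 CPM in Ino80-low wells, 2.35-fold apart. These 3 of 9 genes were at least 1.5-fold higher, a mark that 37.6% of the 5988 genes with a mean of at least 10 CPM also passed; none of the 9 was at least 1.5-fold lower, against 20.1% of those genes. The share of the 9 is thus near that of all genes. Sqstm1 and Ulk1 had larger log2 ratios than 91.8% and 92.9% of those genes.

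Sqstm1 ran from 188 to 4106 CPM over the 399 Ino80-high wells, with a median of 1134, and from 0 to 2251 CPM over the 437 Ino80-low wells, with a median of 298. The ranges overlapped from 188 to 2251 CPM while the middles lay apart. Of 399 Ino80-high wells, 392 lay above the Ino80-low median and 363 above the Ino80-low upper quartile. Of 437 Ino80-low wells, 7 lay above the Ino80-high median. The log2 ratio of the pooled levels was 1.83 (95% interval 1.82 to 1.85), and no more than 1.56% of the counts of either class came from 1 well. Sqstm1 (ENSMUSG00000015837.15) lies on the minus strand of chromosome 11 at 50199366 to 50210827 in mm10. Of its 3356 exon bases, 580 are shared with the oppositely transcribed Mrnip, which was at 5.33 CPM in Ino80-high wells and 0.914 CPM in Ino80-low wells, far below Sqstm1; whether the counting used strand is not stated.

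Ulk1 (ENSMUSG00000029512.11, chromosome 5, 110784488 to 110810097, minus strand) was sparse. Over Ino80-high wells it ran from 0 to 839 CPM and over Ino80-low wells from 0 to 343 CPM, with a median of 0 in both. A read was found in 45.4% of Ino80-high wells and 30.7% of Ino80-low wells. With each well thinned to 30000 counts the shares were 99 of 396 Ino80-high wells and 44 of 434 Ino80-low wells, with 3 shallower wells left out of each class. The log2 ratio of the pooled levels was 1.97 (1.89 to 2.06), and 10.4% of the counts of the Ino80-low class came from 1 well.

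Gabarapl1 (ENSMUSG00000030161.8, chromosome 6, 129533160 to 129542346, plus strand) ran from 0 to 811 CPM over Ino80-high wells, with a median of 16.3, and from 0 to 864 CPM over Ino80-low wells, with a median of 1.96. The ranges were alike and the middles were not: 274 of 399 Ino80-high wells lay above the Ino80-low median. That median lies near the floor of detection. A read was found in 69.9% of Ino80-high wells and 54.2% of Ino80-low wells. Its log2 ratio was 1.23 (1.17 to 1.29). Of its 2013 exon bases, 570 are shared with the oppositely transcribed 1700101I11Rik, at 3.38 CPM in Ino80-high wells and 1.40 CPM in Ino80-low wells.

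The LC3 genes differed from each other. Map1lc3b had 695 CPM in Ino80-high wells and 471 CPM in Ino80-low wells, a log2 ratio of 0.56 (0.55 to 0.57) that lies just under the 1.5-fold mark. Map1lc3a was at 695 CPM in Ino80-high wells and 673 CPM in Ino80-low wells, a log2 ratio of 0.05. Thus Map1lc3b was higher in the Ino80-high class by more than the 0.26 that was the median log2 ratio of all genes, and Map1lc3a by less. Over wells, 296 of 399 Ino80-high wells stood above the Ino80-low median of Map1lc3b, and 223 of 399 did so for Map1lc3a.

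Among mitophagy genes, Bnip3 was at 55.1 CPM in Ino80-high wells and 41.0 CPM in Ino80-low wells (log2 ratio 0.43, 0.38 to 0.48). Bnip3l was at 21.6 CPM in Ino80-high wells and 22.5 CPM in Ino80-low wells (log2 ratio -0.06, -0.13 to 0.01), an interval that includes 0. Fundc1 was at 22.4 CPM in Ino80-high wells and 26.5 CPM in Ino80-low wells (log2 ratio -0.24), with 14.1% of the Ino80-high counts in 1 well. Pink1 was lower, at 282 CPM in Ino80-high wells and 355 CPM in Ino80-low wells (log2 ratio -0.33, -0.35 to -0.31), and 284 of 437 Ino80-low wells stood above the Ino80-high median. The median log2 ratio of the 9 genes was 0.43, with 6 higher and 3 lower in Ino80-high wells. Of all genes measured, 37.4% lay below the log2 ratio of Bnip3l (-0.06) and 41.6% below that of Map1lc3a (0.05). The split of the 9 by direction is thus near that of all genes.

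Scaling by median-of-ratios size factors in place of totals shifted every log2 ratio of the day 3 comparison by -0.38. Sqstm1 at 1.45, Ulk1 at 1.60 and Gabarapl1 at 0.85 were then still past 1.5-fold, Pink1 at -0.71 and Fundc1 at -0.62 passed it on the lower side, Bnip3 was at 0.05, and Map1lc3a turned to -0.33. Of all genes 24.3% were then at least 1.5-fold higher and 32.1% lower, so the direction of a gene near 0 depends on the scaling. The shift was -0.36 for day 1 and -0.48 for day 2 over day 3 Ino80-low wells, where 13.3% of genes were then higher and 21.3% lower on day 1, and 16.2% higher and 22.8% lower on day 2. Totals over all genes, mitochondrial ones included, shifted these by -0.37 on day 1 (13.2% higher, 21.7% lower) and -0.35 on day 2 (21.3% higher, 17.9% lower).

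Several other measures differed between the day 3 classes. The median depth was 306900 counts in Ino80-high wells and 437537 in Ino80-low wells. The median mitochondrial share of counts was 19.7% in Ino80-high wells and 22.2% in Ino80-low wells, and 99.5% of Ino80-high wells fell in a cluster that took 0.229% of the Ino80-low wells. Besides the lower sum of ventricular markers, summed marker levels in Ino80-high wells and then in Ino80-low wells were 196 and 34.1 CPM for 10 macrophage markers, 1166 and 527 CPM for 10 endothelial markers, 2448 and 1015 CPM for 6 atrial markers, 259 and 156 CPM for 9 fibroblast markers and 602 and 195 CPM for 6 erythroid markers. No marker of these lists was at 0 except 1 erythroid marker in Ino80-high wells, and the part of these transcripts in the differences was not tested. Sqstm1, Ulk1 and Gabarapl1 were about as far apart between wells with a mitochondrial share of 15% to 25%, at log2 ratios of 1.86, 1.98 and 1.34 (299 Ino80-high and 301 Ino80-low wells), and at 1.87, 1.83 and 1.26 among wells of at least 300000 counts. The same division by Ino80 was made among day 3 wells outside the compartment (97 high and 94 low wells). There Sqstm1 was at 987 CPM in high wells and 339 CPM in low wells (log2 ratio 1.54), and Gabarapl1 had a log2 ratio of 1.31, whereas Ulk1 had 0.37. Bnip3 was past 1.5-fold in those wells, at 57.9 CPM in high wells and 31.35 CPM in low wells (0.89). Map1lc3b was at 0.03, and Map1lc3a, Pink1, Bnip3l and Fundc1 were also less than 1.5-fold apart. The last 2 settings were chosen after seeing the data.

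The day 1 and day 2 libraries, whose wells nearly all carried Ino80, were set against the same day 3 Ino80-low wells; since all 3 comparisons share those wells, their values are given side by side and are not independent. Sqstm1 was at 830 CPM on day 1 and 721 CPM on day 2, against 345 CPM in day 3 Ino80-low wells. Ulk1 was at 37.5 CPM on day 1 and 29.5 CPM on day 2, against 8.25 CPM in those day 3 wells. Gabarapl1 was at 54.9 CPM on day 1 and 55.8 CPM on day 2, against 22.3 CPM in those wells. The log2 ratios of Sqstm1 were 1.26 (1.25 to 1.28) for day 1 and 1.06 (1.05 to 1.07) for day 2, both below the 1.83 of day 3 Ino80-high wells, while those of Ulk1 were 2.18 for day 1 and 1.84 for day 2, and those of Gabarapl1 1.30 and 1.32. With median-of-ratios size factors Ulk1 (1.82 and 1.36) and Gabarapl1 (0.94 and 0.84) were past 1.5-fold on both days, Sqstm1 at 0.91 on day 1 was too, and Sqstm1 at 0.58 on day 2 fell just short. Bnip3, at 59.5 CPM on day 1 and 71.7 CPM on day 2 against 41.0 CPM in day 3 Ino80-low wells, was past 1.5-fold on day 2 (log2 ratio 0.81, 0.76 to 0.85) and not on day 1 (0.54), and on neither day with median-of-ratios size factors (0.33 on day 2).

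On day 1, 3 of the 9 genes were at least 1.5-fold higher than in day 3 Ino80-low wells and none lower, against 27.6% higher and 9.1% lower of 5957 genes. On day 2, 4 of the 9 were higher and none lower, against 38.6% and 8.38% of 6120 genes, so that the count again lies near the share of all genes. Ulk1 had a larger log2 ratio than 98.8% of genes on day 1 and 96.7% on day 2, and Sqstm1 than 93.4% and 83.7%. Fundc1 was lower on day 1 (20.6 CPM, log2 ratio -0.37) and higher on day 2 (35.02 CPM, 0.40) than in day 3 Ino80-low wells (26.5 CPM), a day 2 direction that turned with median-of-ratios size factors (-0.08). On day 1 it passed 1.5-fold on the lower side with those factors (-0.72) and with totals over all genes (-0.73). Library, day and label change together in these comparisons and cannot be told apart, and the median mitochondrial share was 40.7% on day 1 and 43.6% on day 2, against 22.2%. Summed marker levels were, on day 1, on day 2 and then in day 3 Ino80-low wells, 6588, 180 and 1015 CPM for atrial, 416, 248 and 156 CPM for fibroblast, 37.5, 375 and 195 CPM for erythroid, 608, 740.4 and 527 CPM for endothelial and 102, 107 and 34.1 CPM for macrophage markers, with 1 erythroid marker at 0 on day 1. Without the atrial-like wells, the day 1 log2 ratios were 1.29 for Sqstm1, 2.23 for Ulk1 and 1.31 for Gabarapl1. The part of the marker transcripts in the differences was not tested. Among wells with a share of 25% to 35%, log2 ratios over day 3 Ino80-low wells were 1.24 on day 1 and 1.19 on day 2 for Sqstm1, 1.82 and 1.26 for Ulk1, and 1.26 and 0.83 for Gabarapl1, from 85 day 1, 130 day 2 and 82 day 3 wells.

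**Figure D2:**
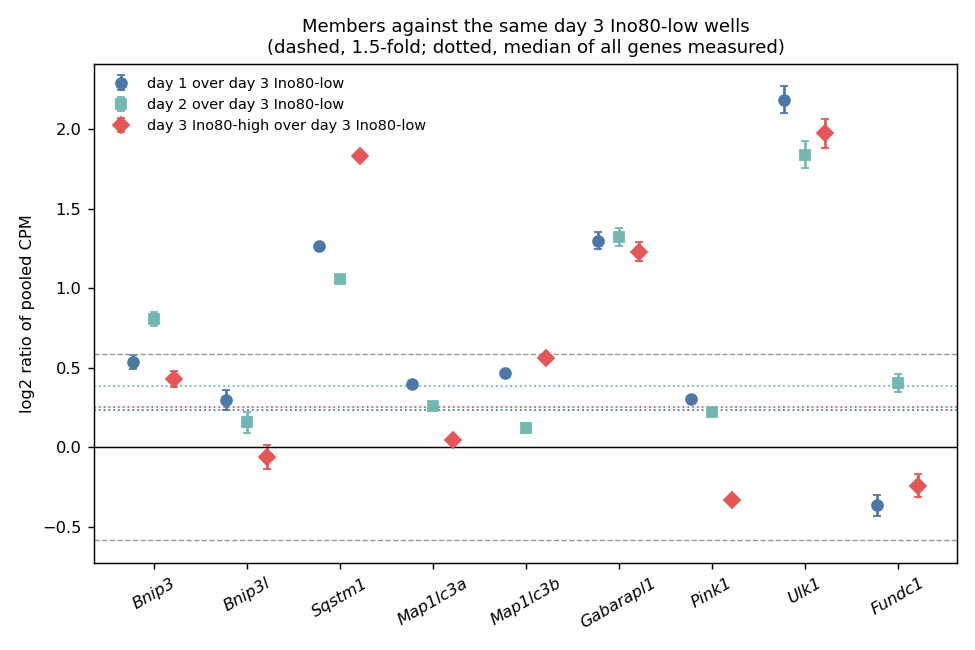
Log2 ratio of pooled CPM of each gene over the same day 3 Ino80-low wells, for day 1 (circles), day 2 (squares) and day 3 Ino80-high wells (diamonds); bars are exact 95% intervals of counting error, dashed lines mark 1.5-fold and dotted lines the median of all genes in each comparison. Sqstm1, Gabarapl1 and Ulk1 lie above the upper dashed line in all 3 comparisons, Sqstm1 at 1.26, 1.06 and 1.83.

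Between day 2 and day 1, 8 of the 9 genes were less than 1.5-fold apart; the main cluster of day 1 wells took 4.92% of day 2 wells, and that of day 2 wells took 4.64% of day 1 wells. Fundc1, the hypoxia-linked mitophagy receptor gene, was the only member at least 1.5-fold apart, at 35.02 CPM (34.1 to 35.9) on day 2 and 20.6 CPM (19.8 to 21.3) on day 1, a log2 ratio of 0.77 (0.70 to 0.83). Among 6426 genes, 16.7% were at least 1.5-fold higher on day 2 and 6.94% lower. Fundc1 was detected in 40.5% of day 2 wells and 32.6% of day 1 wells, with a median of 0 CPM in both. The other 8 had log2 ratios from -0.35 (Map1lc3b, 511 CPM on day 2 and 650 CPM on day 1) to 0.27 (Bnip3, 71.7 CPM on day 2 and 59.5 CPM on day 1). Of the 9 genes, 6 lay lower on day 2, with a median log2 ratio of -0.14 against 0.13 over all genes. Of all genes measured, 30.3% lay below the log2 ratio of Pink1 (-0.08) and 39.4% below that of Gabarapl1 (0.02). The Fundc1 call was lost when wells were weighted equally or when all kept wells were taken.

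Mitochondrial transcripts took different shares of counts from well to well, and several of the 9 genes differed between wells of low and high share. In bins of under 25%, 25% to 35%, 35% to 45% and 45% or more, Pink1 was at 285, 361, 504 and 457 CPM on day 2. It was at 296, 393, 548 and 545 CPM in the same bins on day 3, and at 365, 406 and 611 CPM in the last 3 bins on day 1, where the first bin held fewer than 20 wells. The lowest level was thus in the bin of the lowest share in each library. Map1lc3b was at 669, 612, 461 and 400 CPM on day 2 and at 704, 675 and 497 CPM in the last 3 bins on day 1, lower in each next bin in both, and at 593, 450, 373 and 501 CPM on day 3, where it did not fall at the last step (37 wells). Ulk1 was at 14.9, 20.5, 30.2 and 68.5 CPM on day 3, higher in each next bin, at 22.9, 21.7, 29.9 and 37.4 CPM on day 2, and at 32.04, 34.97 and 53.9 CPM in the last 3 bins on day 1. Map1lc3a was at 723, 537.5, 475 and 504 CPM on day 3. Sqstm1 was at 679, 563, 1052 and 1113 CPM on day 3, where the bins mix the Ino80 classes. Depth differed between bins too, with a median of 371801, 254434, 481967 and 351914 counts per well on day 2.

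In day 2, 368 wells with a mitochondrial share of 40% or more were set against 202 wells under 30%. Pink1 was at 455 CPM (log2 ratio 0.60, 0.58 to 0.63) in high-share wells and 300.2 CPM in low-share wells, and Ulk1 at 37.0 CPM in high-share wells and 22.1 CPM in low-share wells (0.74, 0.65 to 0.84). Map1lc3b was at 417 CPM in high-share wells and 642 CPM in low-share wells (log2 ratio -0.62, -0.64 to -0.60). With totals of nuclear-encoded genes, these were the 3 members at least 1.5-fold apart, 2 higher and 1 lower, beside 35.4% of 6431 genes higher and 10.1% lower. Of those genes 19.8% were higher and 24.9% lower with median-of-ratios size factors, and 13.9% higher and 33.5% lower with totals over all genes (shifts of -0.38 and -0.56). Map1lc3b had a smaller log2 ratio than all but 9.21% of those genes. Bnip3, whose product sits on mitochondria, was at 63.0 CPM in high-share wells and 77.5 CPM in low-share wells (log2 ratio -0.30), and Bnip3l at 29.0 CPM in high-share wells and 20.8 CPM in low-share wells (0.48), a direction that turned in 2 of 10 settings (-0.08 to 0.78). Ino80 differed with the share too, at 6987 CPM in high-share wells and 2267 CPM in low-share wells, so that share and Ino80 level cannot be told apart in this comparison. Median depth was 370253 counts in high-share wells and 301138 in low-share wells, and the median number of genes was 3813.5 and 2989. The part of depth was not tested. Summed markers in high-share and then in low-share wells were 129609 and 107891 CPM for ventricular, 508 and 219.5 CPM for erythroid, 299 and 195.5 CPM for fibroblast, 212 and 162 CPM for atrial, 727 and 895 CPM for endothelial and 99.6 and 125 CPM for macrophage markers, with 1 erythroid marker at 0 in high-share and 2 in low-share wells; their part was not tested. Map1lc3b was lower under all 11 settings tried, from -0.51 to -1.18, and past 1.5-fold in 9 of them, not with all kept wells (-0.51) or the mean of per-well CPM (-0.58). Pink1 and Ulk1 were higher under every setting tried but passed 1.5-fold only under some. Pink1 was at 0.23 and Ulk1 at 0.37 under median-of-ratios size factors. With totals over all genes, mitochondrial ones included, Pink1 was at 0.04 and Ulk1 at 0.18. Under neither scaling was any member at least 1.5-fold higher. With median-of-ratios size factors Bnip3 and Map1lc3b were at least 1.5-fold lower in high-share wells. With totals over all genes Bnip3 (-0.86), Sqstm1 (-0.69), Map1lc3a (-0.71), Map1lc3b (-1.18) and Fundc1 (-0.64) were at least 1.5-fold lower in high-share wells.

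**Figure D3:**
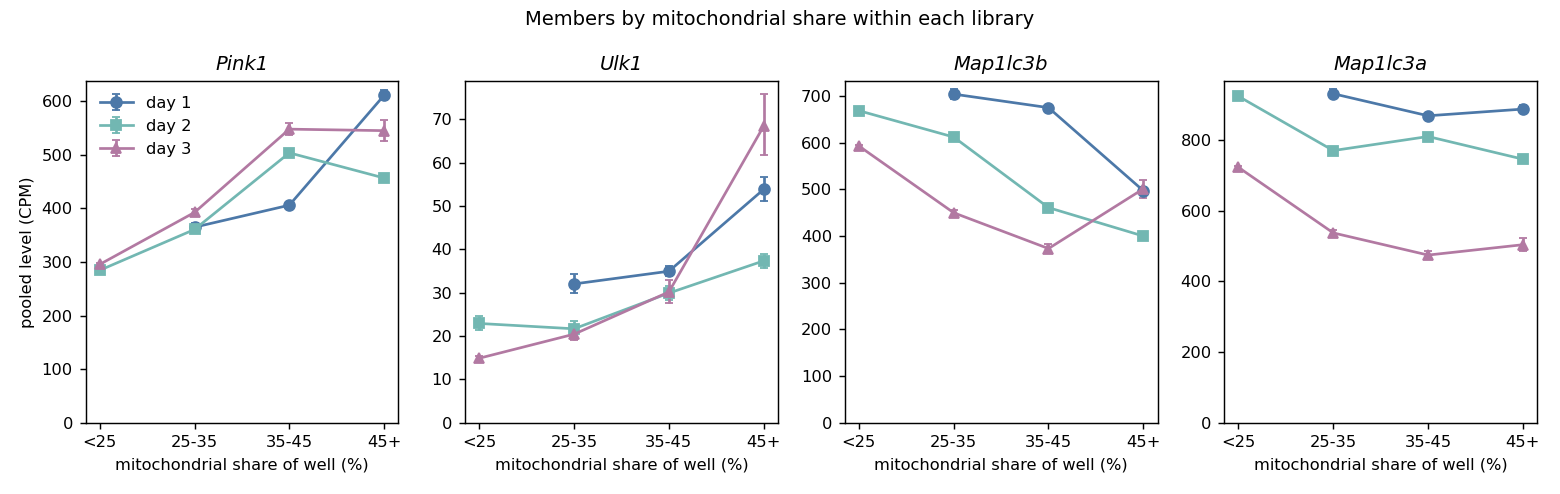
Pooled level (CPM) of Pink1, Ulk1, Map1lc3b and Map1lc3a by bins of the mitochondrial share of a well's counts, for the compartment wells of each library (circles, day 1; squares, day 2; triangles, day 3); bars are exact 95% Poisson intervals. Pink1 stands lowest in the bin of lowest share in each library (285 CPM on day 2), and Map1lc3b is at 400 CPM in day 2 wells of 45% or more against 669 CPM under 25%.

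Within the day 3 classes, Pink1 and Map1lc3b can be read over bins under 20%, of 20% to 25% and of 25% to 35%. Ino80 itself was at 2733, 2865 and 4138 CPM over these bins in Ino80-high wells and at 16.0, 15.9 and 21.6 CPM in Ino80-low wells, so that share and Ino80 level are not separated there. Pink1 was at 255, 201 and 428 CPM in Ino80-high wells and at 268, 367 and 386 CPM in Ino80-low wells. Map1lc3b was at 735, 722 and 545 CPM in Ino80-high wells and at 539, 474 and 408 CPM in Ino80-low wells. Sqstm1 was at 1201, 1154 and 1125 CPM in Ino80-high wells and at 316, 336 and 348 CPM in Ino80-low wells, and the classes stayed apart in each bin. Across wells, Spearman's rho of Pink1 with the mitochondrial share was 0.17 on day 1 (582 wells), 0.14 on day 2 (630), 0.23 in day 3 Ino80-high wells (399) and 0.29 in Ino80-low wells (437). For Map1lc3b it was -0.16, -0.25, -0.14 and -0.29, for Map1lc3a -0.10, -0.13, -0.27 and -0.32, and for Sqstm1 0.165, -0.04, 0.10 and 0.25. The other 5 genes lay between -0.145 and 0.183. These are weak relations over wells of 1 library each that share its depth, and are given as a description.

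Against Ino80 itself, the 9 genes varied little within a class. Over day 1 wells, where Ino80 had quartiles of 1598 and 3853 CPM, rho with Ino80 lay between -0.16 (Map1lc3b) and 0.18 (Pink1), and for Sqstm1 it was 0.09. On day 2 the range was -0.23 (Map1lc3b) to 0.15 (Pink1), with Sqstm1 at -0.10. In day 3 Ino80-high wells Sqstm1 had a rho of 0.11 and in Ino80-low wells of 0.14. Among the 36 pairs of a gene and a class or library, rho with Ino80 lay between -0.23 and 0.18. It was negative for Map1lc3b, Map1lc3a and Bnip3, and positive for Pink1, Ulk1 and Gabarapl1, in each class or library. Some of these values were very small, such as -0.00982 for Bnip3 in day 3 Ino80-high wells and 0.00467 for Gabarapl1 in Ino80-low wells.

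Outside the compartment, the genes were found in every named class whose counts were summed. The few mesothelial-like wells, and the neutrophil-like wells of days 1 and 2, were not summed. Autophagy is a process of most cell types. Sqstm1 was at 839 CPM in fibroblast-like, 715 CPM in endothelial-like and 640 CPM in macrophage-like wells on day 1, beside 830 CPM in the compartment. Pink1 was at 331, 352 and 372 CPM in those classes and 438 CPM in the compartment. Ulk1 was at 25.4, 19.04 and 19.99 CPM in those classes and 37.5 CPM in the compartment. Pink1 and Map1lc3a were lower in these 3 classes than in the compartment on days 1 and 2, Map1lc3a for instance at 550.5 to 628 CPM in the classes and 804 CPM in the compartment on day 2. Bnip3l was higher in fibroblast-like and endothelial-like wells, at 54.3 and 36.0 CPM on day 1, than in the compartment at 27.7 CPM. Cardiomyocyte transcripts were found in all classes, so a level in a class is not that of the cell type alone.

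The genes most like a member across compartment wells were taken from 3559 genes by the mean over libraries of Spearman's rho. For Sqstm1 these were Des, which encodes desmin (mean rho 0.30), Tuba1c, a tubulin gene (0.27), and Cdkn1a, which encodes the cell cycle inhibitor p21 (0.26). Their rho was 0.57 to 0.62 on day 3, which mixes the Ino80 classes, and 0.05 to 0.19 on days 1 and 2. For Pink1 they were Lpl, for lipoprotein lipase (0.30), Ttn, for titin (0.29), and Atp2a2, for the calcium pump of the sarcoplasmic reticulum (0.27), with a rho of 0.23 to 0.33 in each library. For Map1lc3b the first was Ubb, a polyubiquitin gene (0.26), and for Gabarapl1 Flnc, for filamin C (0.18). For Bnip3 and Bnip3l the highest mean rho of any gene was 0.12 and 0.14, too weak to read. Among the 36 pairs of the 9 genes, rho was between -0.12 and 0.21 in every library, with Sqstm1 and Gabarapl1 highest at 0.21 on day 3.

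Other genes of the pathway were taken from 6 lists of 104 genes. In day 3, 72 of them had a mean of at least 10 CPM; 25 (34.7%) were at least 1.5-fold higher in Ino80-high than in Ino80-low wells and 13 (18.1%) lower, near the 37.6% and 20.1% of all genes, with a median log2 ratio of 0.29 beside 0.26 for all genes. With median-of-ratios size factors 17 (23.6%) were higher and 23 (31.9%) lower, near the 24.3% and 32.1% of all genes. In the list counts that follow, those with these factors stand second. Of 8 genes of the ATG8 family and its conjugation machinery 5 were higher and 1 lower, or 3 and 2; of 13 genes of initiation and membrane supply 6 were higher and 2 lower, or 5 and 4; and of 17 genes of fusion and the lysosome 8 were higher and 1 lower, or 5 and 3. Of 11 other mitophagy genes none was higher and 5 were lower, or none and 7. Of 9 other cargo receptor genes 2 were higher and 1 lower under both, and of 14 upstream regulators 4 were higher and 3 lower, or 2 and 6.

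Atg14, which encodes a subunit that targets the autophagy lipid kinase complex, was at 74.97 CPM in Ino80-high wells and 9.52 CPM in Ino80-low wells, the largest log2 ratio of the pathway genes measured at 2.98 (2.90 to 3.05). An antisense gene, Gm49004, shares 239 of its 4322 exon bases and was listed at 0 CPM in both classes. Gabarapl2, of the same GABARAP branch as Gabarapl1, was at 171 CPM in Ino80-high wells and 54.7 CPM in Ino80-low wells (1.64). Gabarap, named after its value was seen, was at 503 CPM in Ino80-high wells and 252 CPM in Ino80-low wells (log2 ratio 0.998). Vamp8, a SNARE gene of autophagosome and lysosome fusion, was at 489 CPM in Ino80-high wells and 217 CPM in Ino80-low wells (1.17), and Mtor, whose kinase restrains ULK1, at 33.2 CPM in Ino80-high wells and 12.8 CPM in Ino80-low wells (1.38). With median-of-ratios size factors the log2 ratio was 0.62 for Gabarap and 1.26 for Gabarapl2. At the low end were Mfn2, a mitochondrial fusion gene and PINK1 substrate, at 122 CPM in Ino80-high wells and 307 CPM in Ino80-low wells (-1.34), and Prkaa2, a catalytic subunit of AMPK that activates ULK1, at 22.7 CPM in Ino80-high wells and 57.1 CPM in Ino80-low wells (-1.33). Atg10, a conjugation enzyme gene, was at 14.6 CPM in Ino80-high wells and 28.6 CPM in Ino80-low wells (-0.97), and Psap, a lysosomal saposin precursor gene, at 119 CPM in Ino80-high wells and 213 CPM in Ino80-low wells (-0.84).

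**Figure D4:**
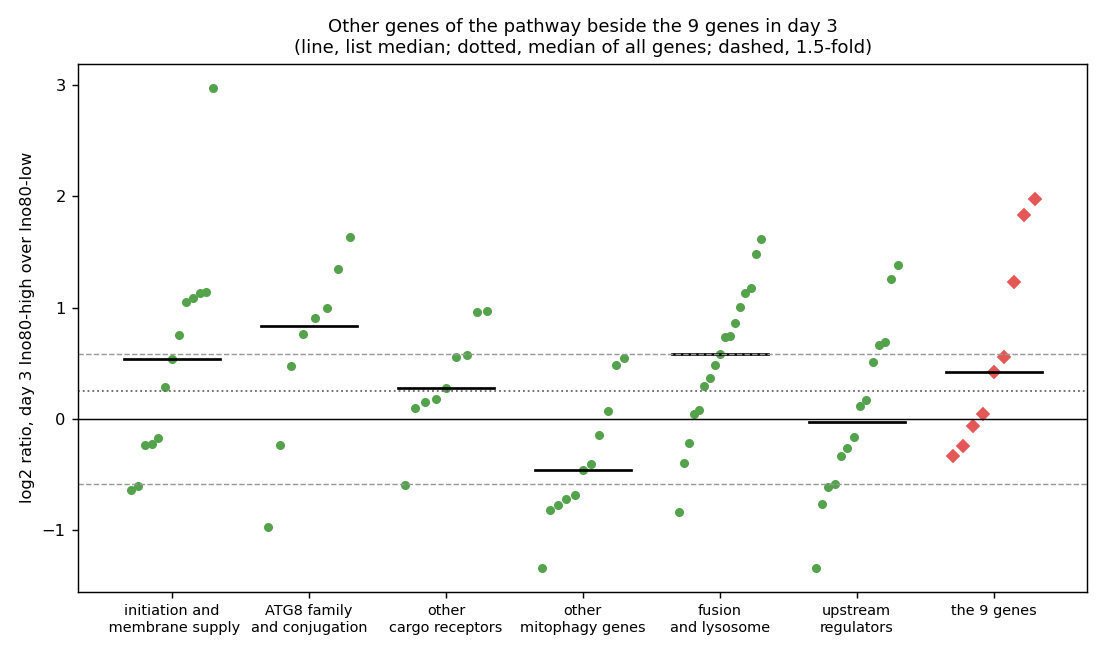
Log2 ratio of pooled CPM, day 3 Ino80-high over Ino80-low wells, for each pathway gene with a mean of at least 10 CPM, by list (circles), and for the 9 genes (diamonds); the horizontal lines are list medians, the dotted line the median of all genes (0.26) and the dashed lines 1.5-fold. The other mitophagy genes have the lowest list median, and Atg14 the highest point at 2.98.

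The same lists were read in the other comparisons. Of 78 pathway genes measured between days 2 and 1, 15 (19.2%) were at least 1.5-fold higher on day 2 and 1 (1.28%) lower, against 16.7% and 6.94% of all genes, or 11 and 4 with median-of-ratios size factors (12.6% and 9.4% of all genes). Bag3, a co-chaperone gene of selective autophagy, was at 310 CPM on day 2 and 126 CPM on day 1 (log2 ratio 1.30), and Fbxo32, the atrogin-1 gene, at 225 CPM on day 2 and 102 CPM on day 1 (1.13), with Wdr45 lowest at 16.2 CPM on day 2 and 26.8 CPM on day 1 (-0.73). Of 72 measured between day 1 and day 3 Ino80-low wells, 17 (23.6%) were higher and 3 (4.17%) lower, against 27.6% and 9.1% of all genes, with Flcn, for the lysosomal regulator folliculin, at 33.7 CPM on day 1 and 7.63 CPM in day 3 Ino80-low wells. Of 76 measured between day 2 and day 3 Ino80-low wells, 33 (43.4%) were higher and 2 (2.63%) lower, against 38.6% and 8.38% of all genes, with the Ulk1 paralogue Ulk2 at 50.3 CPM on day 2 and 16.9 CPM in day 3 Ino80-low wells. Retreg1, an adaptor gene for turnover of the endoplasmic reticulum, was lowest in both, at 77.4 CPM on day 1 and 92.3 CPM on day 2, against 242 CPM in day 3 Ino80-low wells. With median-of-ratios size factors these counts were 4 higher and 10 lower on day 1 (5.56% and 13.9%, against 13.3% and 21.3% of all genes), and 14 higher and 9 lower on day 2 (18.4% and 11.8%, against 16.2% and 22.8%). Between day 2 wells of high and low mitochondrial share, 33 of 81 (40.7%) were higher and 6 (7.41%) lower in high-share wells, against 35.4% and 10.1% of all genes. The counts were 19 higher and 15 lower with median-of-ratios size factors, and 13 higher and 18 lower with totals over all genes, where 13.9% of all genes were higher and 33.5% lower. Prkaa2 was at 64.2 CPM in high-share wells and 15.9 CPM in low-share wells (2.02), and Vamp8 at 214 CPM in high-share wells and 366 CPM in low-share wells (-0.77). Wdfy3, an adaptor gene for aggregates, was at 33.8 CPM in high-share wells and 8.19 CPM in low-share wells (2.04).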

How the data were processed

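Single-well libraries were made on the iCELL8 platform from polyA RNA, per the labels' protocols. The values are unnormalized counts of reads for every gene in every well, which the authors deposited; cutadapt, STAR and featureCounts with the build mm10 are named in the submitters' processing notes, and tool versions, strand setting, annotation and handling of multimapping reads were not given in the sources used here. Wells with at least 1000 counts and 300 genes were kept (1225, 1059 and 1092). Wells of all libraries were clustered together on 2000 variable nuclear genes with scanpy 1.11.5 (30 components, 15 neighbours, resolution 0.5). Clusters were named where at least 3 fixed markers stood 2-fold or more above the rest, except that the ventricular cardiomyocyte name was never given. No doublet caller was run. Counts were summed over wells. CPM intervals are exact Poisson and ratio intervals exact binomial (Clopper-Pearson), at 95%. Only the ratio intervals were checked on simulated data. Those counts were drawn as Poisson, without copied reads or spread between wells, so the check does not cover either. Symbols and coordinates came from GENCODE M21. No test was made, because each group has 1 library. Apart from Gabarap, named pathway genes were drawn from the 4 highest and 4 lowest past 1.5-fold with a mean of at least 20 CPM and at most 25% of counts from 1 well. All of these are named for the day 3 comparison, and only some of them for the other comparisons. Members and lists were chosen with earlier results of these data known.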

Additional observations from a re-analysis of the deposited data

How the results depend on the processing

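No paired analysis was possible because each day has 1 library. Counts of members at least 1.5-fold apart that are not named here stayed within 1.5 times of the reported count. Day 3 Ino80-high against Ino80-low wells: 5 members under median-of-ratios size factors or the median of per-well CPM, against 3. Day 2 against day 1: 0 with all kept wells, with the mean or the median of per-well CPM, or with a 2-fold mark, and 2 in a window of mitochondrial share, against 1. Day 1 against day 3 Ino80-low wells: 5 in the window, against 3. Day 2 against day 3 Ino80-low wells: 2 under median-of-ratios size factors, against 4. Day 2 wells of high against low mitochondrial share: 5 with totals over all genes, all of them lower in high-share wells, and 0 with the mean of per-well CPM or a 2-fold mark, against 3. With median-of-ratios size factors the members past the mark there were Bnip3 and Map1lc3b, both lower, in place of Pink1, Ulk1 and Map1lc3b. The window was not run where mitochondrial share defines the groups, and the median of per-well CPM gives no ratio for genes with a median of 0. Over all settings, the day 3 log2 ratio ran from 1.45 to 1.93 for Sqstm1, 0.85 to 3.06 for Gabarapl1 and 0.37 to 2.20 for Ulk1. The 3.06 of Gabarapl1 compares medians of 16.3 and 1.96 CPM, of which the second lies near the floor of detection. The cause of these moves was not tested. Values of Bnip3l, Ulk1 and Fundc1 are limited by sparse reads: their median well held no read on day 1, on day 2 or in either day 3 class.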
